A study of Homo sapiens with 18 samples.

Results

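The mRNAs described here are those of 230 human zinc finger genes, out of 13661 genes measured by polysome profiling in HEK293 cells, an established human embryonic kidney line. They are the genes whose symbol begins with ZNF and a digit and whose GC content, as listed by the authors for the whole gene, is at least 43%. They were chosen by symbol and listed GC content, and the grouping was proposed from the fraction percentages of these libraries in heavy polysomes, light polysomes and monosomes, so the counts over its members are descriptions. Of 434 such ZNF genes, 203 fell under the threshold and 1 had a GC content listed as 0. A mean of at least 10 reads over the libraries was required for a test, which 226 of the 230 members and 197 of the 203 ZNF genes of lower GC content passed. ZNF157, ZNF347, ZNF578 and ZNF843 were left out, with a mean of 6.67, 9.22, 6.0 and 9.56 reads. Each of the 226 had reads in every library.

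All cells had received the solvent DMSO for 12 h before lysis, and none of the groups compared carries another agent. Lysates were spun through sucrose gradients, and RNA was sequenced from heavy polysomes, light polysomes and monosomes, in 3 replicates of each. A further 9 libraries, from cells given 100 µM minocycline, are not analysed here. The libraries held 15103945 to 24441159 reads from heavy polysomes, 16809945 to 19558832 from light polysomes and 13447139 to 16145486 from monosomes. Each library is of a lysate of many cells, so a shift in every cell and a larger one in some of the cells cannot be told apart. Light polysome library 2 stood apart. Across genes it correlated at r = 0.899 and 0.889 with light polysome libraries 1 and 3. With the 3 heavy polysome libraries r was 0.939, 0.928 and 0.953. The other libraries of gradient 2 were also the least like their own fraction. For monosome library 2 r was 0.940 and 0.925, against 0.965 between libraries 1 and 3. For heavy polysome library 2 it was 0.949 and 0.955, against 0.978.

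C2H2 zinc fingers are small folds in which a pair of cysteines and a pair of histidines hold a zinc ion, and tandem arrays of them read DNA sequence. Many ZNF proteins also carry a KRAB domain, which recruits the corepressor TRIM28 and through it the histone methyltransferase SETDB1 to silence transposable elements and other targets. Others carry a SCAN domain, through which zinc finger proteins pair with each other. KRAB zinc finger genes lie in tandem clusters that are most extensive on chromosome 19.

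That layout was visible in the members: 111 of 230 lay on chromosome 19, 25 on chromosome 16 and 19 on chromosome 7. Their GC content ran from 43.01% to 65.95%, with a median of 46.9%. In the translated GENCODE coding sequences, the cysteine and histidine spacing of the family was found a median of 10 times per protein (range 0 to 31), and 5 members had no match. A KRAB-like stretch was found in 131 members and a SCAN-like stretch in 12. These came from a search for conserved positions, and a protein without a match may still carry the domain.

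The finger-coding sequences of the 6 members with the highest and the 6 with the lowest ribosome load, among those with at least 100 normalized counts on average, are shown because they hold what the group shares and what varies within it. Each line is the first finger that is followed by the conserved linker, or the first finger where none is, read 5′ to 3′ from the GENCODE release 29 transcript (GRCh38, coding strand). Capitals mark the codons of the cysteines and histidines that bind zinc.
ZNF777: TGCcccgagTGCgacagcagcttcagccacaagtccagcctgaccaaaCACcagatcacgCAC
ZNF444: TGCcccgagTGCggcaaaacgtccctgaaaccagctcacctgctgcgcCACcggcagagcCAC
ZNF174: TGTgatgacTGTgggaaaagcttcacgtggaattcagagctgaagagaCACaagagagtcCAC
ZNF48: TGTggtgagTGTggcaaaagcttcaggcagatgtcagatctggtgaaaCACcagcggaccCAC
ZNF212: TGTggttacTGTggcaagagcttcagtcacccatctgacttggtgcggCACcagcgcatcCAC
ZNF282: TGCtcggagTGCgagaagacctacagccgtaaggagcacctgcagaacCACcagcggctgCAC
ZNF594: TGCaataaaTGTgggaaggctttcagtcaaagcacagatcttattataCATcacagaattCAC
ZNF70: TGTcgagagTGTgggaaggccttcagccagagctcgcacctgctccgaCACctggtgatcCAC
ZNF749: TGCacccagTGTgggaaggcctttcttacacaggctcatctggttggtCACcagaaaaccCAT
ZNF417: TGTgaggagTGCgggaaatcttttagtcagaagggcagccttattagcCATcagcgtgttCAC
ZNF331: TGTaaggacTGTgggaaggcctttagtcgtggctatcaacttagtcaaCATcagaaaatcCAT
ZNF587: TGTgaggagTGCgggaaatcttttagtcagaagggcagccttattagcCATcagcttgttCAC
Stretches that code for the same fold thus differ in base composition: the finger of ZNF444 has a GC content of 66.7%, and that of ZNF594 has 36.5%. They also differ in the residues they code for, and codon choice was not compared separately. The fingers of ZNF587 and ZNF417 differ at 1 of 63 bases, T56G from ZNF587 to ZNF417, counted from 1 at the 5′ end.

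Mean ribosome load (MRL), the authors' score, weights the share of an mRNA in monosomes by 1, in light polysomes by 2.5 and in heavy polysomes by 6. Because the authors scaled each library to the same typical gene, it ranks mRNAs against each other and says nothing of how much RNA a fraction held. The median MRL of the members was 2.59, 2.76 and 2.53 in gradients 1, 2 and 3. For ZNF genes of lower GC content it was 2.47, 2.82 and 2.42, and for all 12720 genes kept it was 3.17, 3.17 and 3.16. Members thus lay below the typical mRNA in each gradient, and gradient 2 showed the smallest gap. In gradients 1, 2 and 3, 82.3%, 75.2% and 81.9% of the members were under the median gene, against 90.9%, 71.6% and 88.8% of the ZNF genes of lower GC content. The difference between the ZNF groups was not tested: the members were higher in gradients 1 and 3 and lower in gradient 2.

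**Figure D1:**
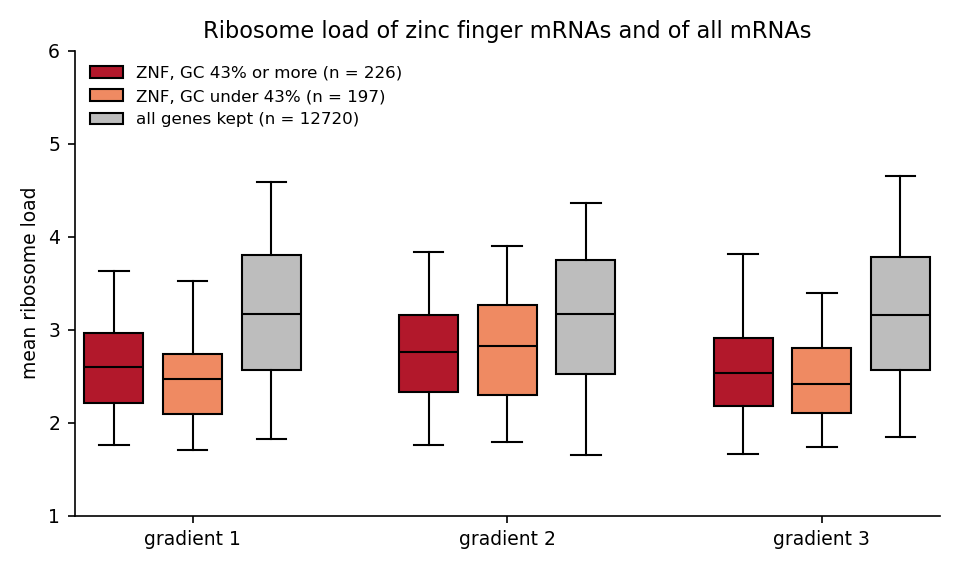
Mean ribosome load (vertical axis, no unit) in each of 3 gradients for ZNF genes with a GC content of at least 43%, ZNF genes under 43% and all genes kept. Boxes run from the lower to the upper quartile with the median as a line, and whiskers reach the 5th and 95th percentiles; the ZNF medians lie under that of all genes in each gradient.

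The share of member mRNA in each fraction gave the same picture. The median member had 20.9%, 26.8% and 19.5% of its signal in heavy polysomes in gradients 1, 2 and 3, against 32.8%, 32.3% and 32.3% for all genes. In light polysomes it had 30.98%, 24.1% and 31.6%, against 30.3%, 30.96% and 30.3%. In monosomes it had 43.7%, 46.5% and 45.6%, against 30.8%, 30.9% and 31.3%. The members were therefore lower than all genes in heavy polysomes and higher in monosomes in each gradient, while in light polysomes only gradient 2 stood off. By mean percentage, monosomes led in 151 of 226 members, light polysomes in 42 and heavy polysomes in 33. Over all 12720 genes kept, monosomes led in 4321, light polysomes in 3075 and heavy polysomes in 5324. For the 197 ZNF genes of lower GC content these numbers were 134, 51 and 12. In the authors' deposited table, 70 of 230 members are in the strict monosome class, which holds 11.3% of all genes, 2 are in the heavy polysome class (12.1% of all genes) and 2 in the light polysome class (3.67%). The other 156 are in the mixed class, which holds 72.9% of all genes.

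MRL in each gradient was tested against the median gene with limma over all genes, at a Benjamini-Hochberg adjusted p of 0.05. Of 226 members, 115 were lower, where 24.7% of all genes were lower, and 4 were higher, where 22% of all genes were. The median member lay at -0.29 on the log2 scale, and the median of all genes at 0.01. Without replicate 1, 65 members were lower and 2 higher. Without replicate 2 there were 130 lower and 10 higher, and without replicate 3 there were 96 lower and 0 higher by limma, with 3 higher at an unadjusted p under 0.05. Over all genes, 17%, 28% and 23.2% were lower and 9.89%, 29.1% and 14.4% higher without replicates 1, 2 and 3. Of the ZNF genes of lower GC content, 109 of 197 were lower and 4 higher. When log2 of the share in light plus heavy polysomes took the place of MRL, 58 members were lower, where 11.6% of all genes were. With that measure the calls of ZNF19, ZNF76, ZNF174, ZNF219, ZNF423, ZNF444, ZNF592, ZNF593 and ZNF664, among the members named below, were not made.

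Of the 6 members with the lowest MRL among those with at least 100 normalized counts, ZNF587, ZNF417 and ZNF749 lie near the end of chromosome 19, ZNF331 elsewhere on it, ZNF594 on chromosome 17 and ZNF70 on chromosome 22. ZNF587 (ENSG00000198466, GRCh38 chromosome 19, 57849857 to 57865112), known as a repressor of endogenous retroviruses, had 121, 153 and 149.9 normalized counts in heavy polysome libraries 1, 2 and 3. Light polysome libraries held 272, 255.6 and 309, and monosome libraries 1969, 1329 and 2621. The 3 fractions did not overlap, and every monosome library was the highest of its gradient. Its MRL was 1.49 ± 0.15 (SD, n = 3) and it had 81.6% ± 4.6 of its signal in monosomes. It was lower in heavy polysomes than in monosomes by a log2 difference of -3.75 (SE 0.32, adjusted p = 5.9e-06 by limma) and lower in light polysomes by -2.77 (SE 0.32, adjusted p = 0.00014), in 3 of 3 gradients each.

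ZNF417 (chromosome 19, 57900296 to 57916610), its close relative with the same known targets, had 33.6, 48.8 and 60.3 normalized counts in heavy polysomes. It had 134, 51.0 and 136 in light polysomes and 530.4, 595 and 554 in monosomes. Monosome libraries were again the highest, and light polysome library 2 fell within the range of heavy polysomes. Its MRL was 1.55 ± 0.11 (SD, n = 3). Of its 75-base windows, 31.5% also occur in other genes, as do 15.3% of those of ZNF587, so their reads could have been split or lost by the counting.

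ZNF331 (chromosome 19, 53519527 to 53580269), an imprinted gene, had 8.18, 34.8 and 11.2 normalized counts in heavy polysomes. It had 75.1, 41.9 and 103 in light polysomes and 302, 156 and 844 in monosomes. Gradient 2 was the highest in heavy polysomes and the lowest in light polysomes and monosomes, and no heavy polysome library reached a light one. Its heavy against monosome difference of -4.43 (SE 0.61, adjusted p = 0.000127 by limma) was the most negative of all members. The heavy polysome value in library 1 rests on 10 reads.

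ZNF749 and ZNF594 had an MRL of 1.65 ± 0.43 and 1.70 ± 0.41 (SD, n = 3), and ZNF70 on chromosome 22 had 1.66 ± 0.10. ZNF749 had its highest value, 2.14, in gradient 3, and ZNF594 its highest, 2.17, in gradient 2. All 6 of these members were lower in MRL and in both polysome fractions against monosomes. For MRL and for heavy against monosome, the calls of these 6 held without any of the 3 replicates. For light against monosome, that of ZNF331 (log2 difference -2.30, adjusted p = 0.0178) was lost without replicate 3 (adjusted p = 0.0721 by limma).

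**Figure D2:**
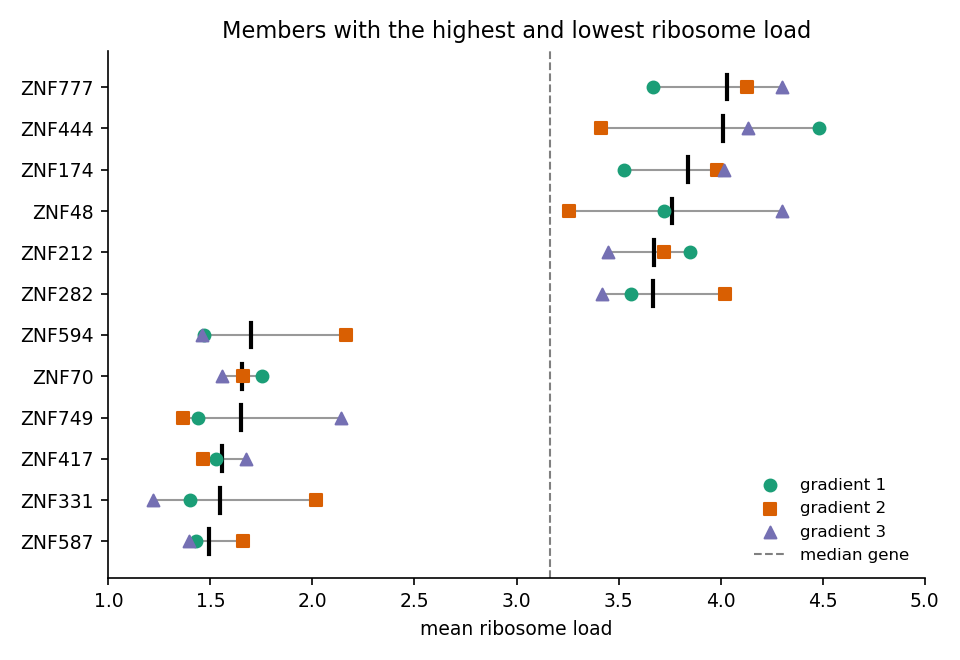
Mean ribosome load (horizontal axis, no unit) in gradients 1, 2 and 3 for the 6 members with the highest and the 6 with the lowest mean, among members with at least 100 normalized counts. Bars mark the mean, grey lines the range and the dashed line the median gene; all values of the lowest 6 lie at or under 2.17, and those of the highest 6 at or above 3.26.

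At the high end, 4 members passed the test for a higher MRL. ZNF777 (ENSG00000196453, chromosome 7, 149431363 to 149461123), a KRAB zinc finger gene, had 178, 319.8 and 261 normalized counts in heavy polysomes. It had 128, 221 and 95.6 in light polysomes and 99.2, 75.8 and 82.3 in monosomes. Every heavy polysome library was above its light and monosome counterparts, although light polysome library 2 exceeded heavy polysome library 1. Its MRL of 4.03 ± 0.33 (SD, n = 3) lay 0.35 above the median gene (log2, SE 0.08, adjusted p = 0.0108 by limma, 3 of 3 gradients), a call lost without replicate 3 (adjusted p = 0.0875). Its heavy against monosome difference of 1.52 (SE 0.37, adjusted p = 0.00403) held without any of the replicates.

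ZNF444 (chromosome 19, 56132599 to 56160893), a SCAN zinc finger protein known to bind the promoter of a scavenger receptor gene, had 1572, 1120 and 1169 normalized counts in heavy polysomes. It had 549, 1053 and 471 in light polysomes and 373, 798 and 449 in monosomes. Gradient 2 was the lowest in heavy polysomes and the highest in the other fractions, and heavy polysomes did not overlap with either. Its MRL was 4.01 ± 0.54 (SD, n = 3). ZNF174, a SCAN repressor, had 3.84 ± 0.27, and ZNF423, a partner of SMAD and EBF factors with a mean of 41.9 normalized counts, had 3.85 ± 0.01. For ZNF444, ZNF174 and ZNF423 the adjusted p for MRL was 0.0223, 0.0268 and 0.0188. Without replicate 1 it was 0.248, 0.0818 and 0.172, and without replicate 3 it was 0.0774, 0.185 and 0.104 (limma).

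ZNF48, ZNF212 and ZNF282, a KRAB protein known to bind the long terminal repeat of a leukaemia virus, had MRL values of 3.76 ± 0.52, 3.67 ± 0.21 and 3.67 ± 0.31 (SD, n = 3 each). None of these passed the test against the median gene, with adjusted p-values of 0.0776, 0.0662 and 0.0804 by limma. All of them lay above the median gene in each of the 3 gradients, as did 33.6% of all genes. They were picked for a high mean MRL over the same gradients, so this adds no support.

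Members between these ends fell into patterns that a single score hides, and the contrasts between fractions separate them. For heavy polysomes against monosomes, 114 members were lower, where 24.4% of all genes were, and 7 were higher, where 24.7% were. The 7 were ZNF174, ZNF212, ZNF318, ZNF423, ZNF444, ZNF649 and ZNF777. For light polysomes against monosomes, 57 members were lower, where 10.2% of all genes were, and 3 were higher, where 8.47% were. For heavy against light polysomes, 40 members were lower, which is 17.7% and level with the 17.5% of all genes. Another 6 were higher, where 14.7% of all genes were. The ZNF genes of lower GC content had 113 of 197 lower in heavy against monosome, 44 in light against monosome and 62 in heavy against light. The last of these shares, 31.5%, stands beside 17.7% of the members, and the difference was not tested.

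These counts depended on the gradients used. Without replicate 1, 2 or 3, the members lower in heavy against monosome numbered 64, 136 and 64, and those higher 1, 11 and 1. For light against monosome, 20, 78 and 27 were lower and 1, 15 and 1 higher. For heavy against light, 0, 96 and 0 were lower and 0, 16 and 0 higher by limma. The counts over all genes moved the same way: in heavy against light they were 0, 3845 and 0 lower and 0, 3806 and 1 higher of 12720. In heavy against monosome 14.7%, 30% and 17.3% of all genes were lower without replicates 1, 2 and 3, and in light against monosome 3.25%, 18.1% and 5.42%. The shares of all genes called higher were 9.99%, 31.4% and 13.8% in heavy against monosome. In light against monosome they were 1.17%, 17.3% and 1.94%. At an unadjusted p under 0.05 by limma without replicates 1 and 3, 21 and 18 members were lower in heavy against light and 4 and 4 higher. Without light polysome library 2 alone, 70 members were lower and 14 higher in heavy against light, where 25.8% and 24.7% of all genes were, and 8 were higher in light against monosome, where 10.6% of all genes were.

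Across the 4 tests, 43 members were lower in MRL and in both polysome fractions against monosomes with no difference called between the polysome fractions. Another 23 were lower in MRL, in heavy against monosome and in heavy against light, so that their light polysome signal was not called different from monosomes. A further 8 were lower in every test, 34 only in MRL and heavy against monosome, and 82 passed no test. The remaining 36 members had other combinations. Shares of all genes with these combinations were not counted, so the numbers describe the members and do not set them apart from other genes.

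**Figure D3:**
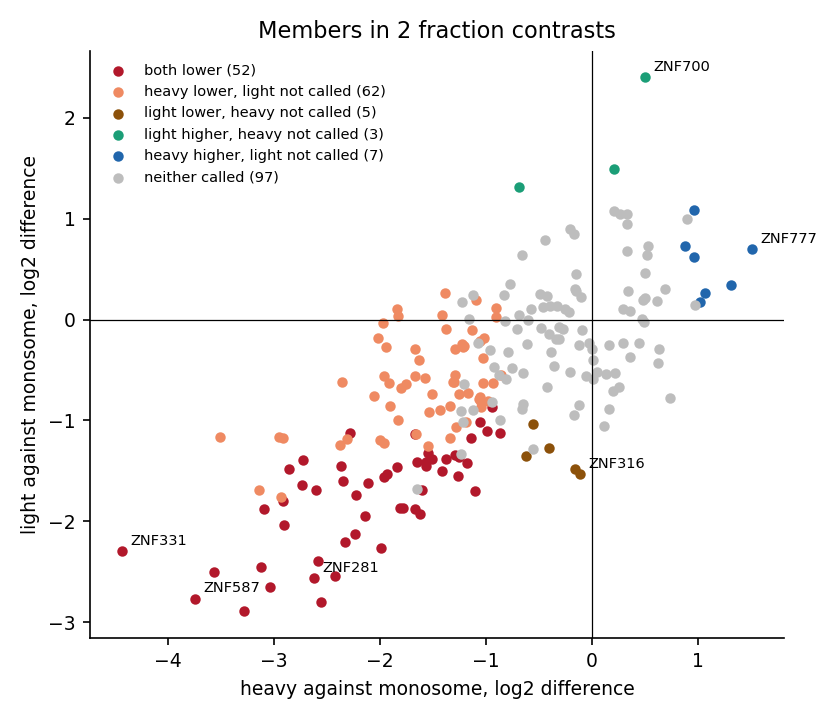
Log2 differences of the 226 members kept, heavy against monosome (horizontal) and light against monosome (vertical), each point 1 gene coloured by its calls at an adjusted p of 0.05 with limma. Of the members, 52 were lower in both contrasts and 62 lower in heavy polysomes only by call, while ZNF700 stood apart at the top with a light against monosome difference of 2.40. Shares of all genes with the same pairs of calls were not counted.

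The 3 members called higher in light polysomes than in monosomes were ZNF700, ZNF44 and ZNF445. ZNF700 (ENSG00000196757, chromosome 19, 11925068 to 11950773), a KRAB zinc finger gene, had 99.03, 136 and 141 normalized counts in heavy polysomes. It had 621, 194 and 829 in light polysomes and 119, 59.2 and 93.7 in monosomes. Every light polysome library exceeded all heavy polysome and monosome libraries, and light polysome library 2 was by far the lowest of its fraction. Light polysomes held 67.3% ± 15.2 of its signal (SD, n = 3). The light against monosome difference was 2.40 (SE 0.47, adjusted p = 0.00348 by limma), and 3.03 without light polysome library 2 (adjusted p = 0.000135). Its heavy against light difference was -1.90 (SE 0.47, adjusted p = 0.0106), and -2.52 without that library. It was lost without replicate 1 (adjusted p = 0.185) or replicate 3 (0.106).

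ZNF44, also in the chromosome 19 cluster around ZNF700, had 60.0% ± 7.5 of its signal in light polysomes (SD, n = 3). ZNF445, which keeps genomic imprints, had 70.9%, 33.1% and 64.6% in gradients 1, 2 and 3, so that gradient 2 stood far below the others. Both were higher in light polysomes than in monosomes, by 1.32 (adjusted p = 0.0375) and 1.49 (adjusted p = 0.0291, limma). The adjusted p was 0.264 and 0.271 without replicate 1 and 0.144 and 0.181 without replicate 3. Without light polysome library 2 these differences were 1.65 and 2.05 (adjusted p = 0.0102 and 0.00115). ZNF131, a BTB-domain transcription factor, had 49.1% ± 2.6 in light polysomes (SD, n = 3), and its light against monosome difference of 0.90 did not pass (adjusted p = 0.102 by limma).

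Another 5 members, ZNF114, ZNF316, ZNF436, ZNF579 and ZNF775, were lower in light polysomes than in monosomes with no call for heavy against monosome. ZNF316, a KRAB zinc finger gene on chromosome 7, had 223, 245 and 129 normalized counts in heavy polysomes, 75.8, 94.99 and 50.02 in light polysomes and 216, 139.8 and 297 in monosomes. Light polysomes were the lowest fraction in each gradient, and heavy polysomes and monosomes overlapped. The light against monosome difference was -1.53 (SE 0.39, adjusted p = 0.0137) and the heavy against light difference 1.42 (SE 0.39, adjusted p = 0.0153 by limma). Without replicate 1 these had an adjusted p of 0.117 and 0.205, and without replicate 3 of 0.256 and 0.1. ZNF174, ZNF282, ZNF579, ZNF653 and ZNF687 were the other members higher in heavy than in light polysomes. With the replicate number as a block, that of ZNF174 was not called (log2 difference 0.84, adjusted p = 0.0568, against 0.047 without the block).

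The 4 most abundant members differed widely, with mean MRL values from 1.81 to 3.51. ZNF703, a breast cancer associated corepressor of the NET family that has no classical finger array, had 6348, 4821 and 6385 normalized counts in heavy polysomes, 3520.4, 3991 and 3396 in light polysomes and 5509, 6823 and 3927 in monosomes. Its heavy and monosome libraries overlapped, light polysomes were the lowest fraction in each gradient, and its MRL of 3.34 ± 0.39 (SD, n = 3) was not called. ZNF664 had 755, 895 and 1039.7 in heavy polysomes, 4446, 1433 and 4999 in light polysomes and 2628, 4399.5 and 4016 in monosomes. Light polysome library 2 was well under its counterparts, and every heavy polysome library was under all others of this gene. Its MRL was 2.19 ± 0.18 (log2 -0.53 from the median gene, SE 0.10, adjusted p = 0.00338 by limma). ZNF281, a transcription factor linked to pluripotency and to the NuRD complex, had 1005, 578 and 666 in heavy polysomes, 763, 729.9 and 781 in light polysomes and 5455, 2947 and 5637 in monosomes. The polysome fractions overlapped, and all monosome libraries stood far above them. Its light against monosome difference was -2.57 (SE 0.36, adjusted p = 0.000474 by limma), with an MRL of 1.81 ± 0.16. The MRL calls of ZNF664 and ZNF281 held without any of the replicates, and that of ZNF664 was lost with the share in light plus heavy polysomes (adjusted p = 0.148 by limma).

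ZNF598, the ubiquitin ligase that marks collided ribosomes, was the fourth most abundant member, with 1773, 1127 and 1275 normalized counts in heavy polysomes. It had 693, 1704 and 529 in light polysomes and 847, 1031 and 1154.5 in monosomes. Light polysome library 2 was the highest of its fraction by more than the spread of the others, and the 3 fractions overlapped. Its MRL of 3.51 ± 0.44 (SD, n = 3) was not called (adjusted p = 0.26 by limma).

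Of the members linked to RNA or ribosomes, 6 were kept, with a median MRL of 2.99, 2.94 and 2.96 in gradients 1, 2 and 3. In MRL 1 was lower (16.7%, against 24.7% of all genes) and 0 higher (against 22%) by limma, which is not above that background. At an unadjusted p under 0.05 there were 2 lower and 0 higher. The call was ZNF593, whose yeast relative Bud20 acts in export of the large ribosomal subunit precursor (2.49 ± 0.37, adjusted p = 0.0292), a call lost without replicate 1 (0.0728) or 2 (0.0563). All of its exonic bases overlap another annotated gene, so its reads cannot be assigned to it alone. ZNF346, a binder of double-stranded RNA, had 2.64 ± 0.24 and was lower in heavy polysomes than in monosomes (log2 -0.90, adjusted p = 0.0288), which was lost without replicate 1 (0.157) or 3 (0.38). ZNF473, which acts with the U7 snRNP on histone pre-mRNA, had 3.34 ± 0.44, ZNF74 had 3.01 ± 0.12 and ZNF385A, an RNA-binding partner of p53, had 2.92 ± 0.18 (SD, n = 3 each).

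Of the SCAN zinc finger genes, 11 members were kept, and their median MRL was 2.75, 3.21 and 3.30 in gradients 1, 2 and 3. In MRL 2 were higher (ZNF444 and ZNF174) and 3 were lower, which is 18.2% and 27.3% of the list against 22% and 24.7% of all genes, close to that background. Without replicate 1, and also without replicate 3, none of the list was called higher by limma (1 at an unadjusted p under 0.05 each) and 2 were lower. ZNF232 had 1.79, 2.02 and 1.75, all under the median gene (adjusted p = 0.000717 by limma). ZNF202, a repressor of lipid metabolism genes, had 1.83, 2.37 and 1.99 (adjusted p = 0.00234), and ZNF500 had 2.66, 2.45 and 2.51 (adjusted p = 0.022). The calls of ZNF232 and ZNF202 held without any of the replicates, and that of ZNF500 was lost without replicate 1 (0.118) or 3 (0.0653). ZNF274, which carries a KRAB domain too and recruits SETDB1 to the 3′ ends of ZNF genes, had 3.14, 3.49 and 3.56, with gradient 1 under the median gene and the others above it. ZNF263, ZNF496, ZNF394, ZNF213 and ZNF446 lay between 2.74 and 3.44 in mean MRL, and none was called in MRL.

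Of members known as chromatin or transcription cofactors, 17 were kept, with a median MRL of 2.93, 3.54 and 2.82 in gradients 1, 2 and 3. In MRL 5 were lower (29.4%, against 24.7% of all genes), close to that background. Only 1, ZNF423, was higher (5.88%, against 22% of all genes). ZNF532 and ZNF592, related proteins that act with ZMYND8, had 1.98 ± 0.13 (adjusted p = 0.00116) and 2.46 ± 0.06 (adjusted p = 0.0122). ZNF687, the third of that complex, had 3.05, 3.998 and 3.20 and was not called (adjusted p = 0.444 by limma). ZNF281, ZNF76, a paralogue of the promoter-binding factor ZNF143, with 2.20 ± 0.29, and ZNF219 with 2.37 ± 0.12 made up the 5 (SD, n = 3). Without replicate 1 the calls of ZNF592 (0.0827), ZNF219 (0.0832) and ZNF423 (0.172) were lost, and without replicate 3 that of ZNF423 (0.104). The other members of the list, among them the leukaemia fusion partner ZNF384 and the CtBP-binding oncoprotein ZNF217, had mean MRL values from 2.72 to 3.61 and were not called.

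MRL varied among the members with the composition of the coding sequence in gradients 1 and 3, and less in gradient 2. Across the 226 members, which share the same 9 libraries, mean MRL correlated with the GC content of the gene at a Spearman rho of 0.27 (Pearson r = 0.30). With the GC content of the coding sequence rho was 0.38 (r = 0.41). By gradient, rho with coding GC content was 0.41, 0.16 and 0.44 in gradients 1, 2 and 3. For ZNF genes of lower GC content rho with coding GC content was 0.24 over 197 genes, and over all genes it was -0.05. Coding length (rho 0.13), the number of fingers (-0.13) and the mean normalized count (-0.03) related less to mean MRL. In gradient 2, however, rho was 0.26 with coding length and 0.16 with coding GC content. Genes are not independent replicates, so no p is given.

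**Figure D4:**
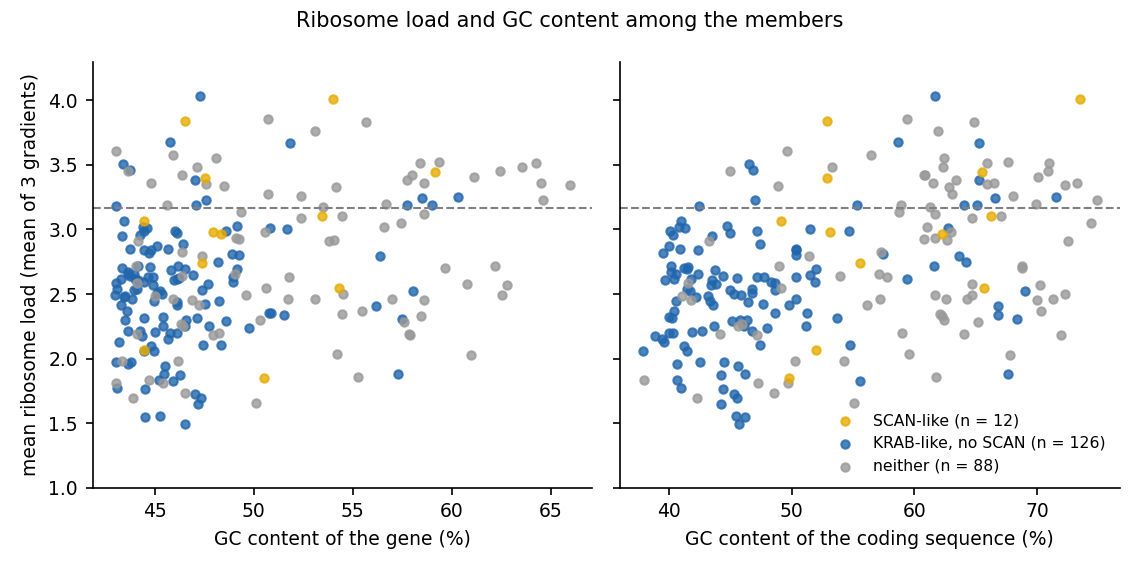
Mean ribosome load of the 226 members (vertical axis, mean of 3 gradients, no unit) against the GC content in percent of the gene on the left and of its coding sequence on the right. Points are coloured by SCAN-like (12), KRAB-like without SCAN (126) and neither (88), and the dashed line is the median gene; the KRAB-like members crowd at low GC content and low load.

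In steps of gene GC content, the median MRL was 2.42, 2.78 and 2.41 in gradients 1, 2 and 3 for the 66 members from 43% to 45%, and 2.35, 2.60 and 2.36 for the 47 from 45% to 47%. It was 2.72, 2.82 and 2.69 for the 42 from 47% to 50%, 2.83, 2.74 and 2.81 for the 30 from 50% to 55%, and 2.80, 2.92 and 2.85 for the 41 above that. Gradients 1 and 3 thus showed a step near 47%, and gradient 2 showed little of it. Members called lower in MRL were 38 of 66, 29 of 47, 18 of 42, 14 of 30 and 16 of 41 in these groups. Of all genes, 24.7% were called lower, a smaller share than in any of these groups.

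Coding GC content and domain type went together. The 128 KRAB-like members kept had a median coding GC content of 45.6% and 12 fingers, against 61.8% and 8 fingers in the 88 members with neither stretch. KRAB-like members had a median MRL of 2.44, 2.73 and 2.42 in gradients 1, 2 and 3, and those with neither had 2.75, 2.76 and 2.77. Within gene GC content under 50%, the 113 KRAB-like members had 2.41, 2.73 and 2.41 and the 42 others 2.59, 2.87 and 2.54. At 50% or more, the 15 KRAB-like members had 2.82, 3.04 and 2.51 and the 56 others 2.79, 2.74 and 2.97. KRAB-like members were thus lower in each gradient under 50%, and lower in gradient 3 alone at 50% or more. GC content and domain type share their variation here, and their parts were not tested.

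Members were also set side by side by genomic position, with no test. Grouping members whose starts lay within 500 kb of the next gave 10 clusters of at least 5 members, a grouping made after the levels had been seen. The 36 members at the end of chromosome 19 (57191500 to 58481230), which include ZNF587, ZNF417 and ZNF749, had a median MRL of 2.45, 2.60 and 2.37 in gradients 1, 2 and 3. Of these, 25 were lower than the median gene by limma, where 24.7% of all genes were lower and 22% higher. The neighbouring group of 10 members (55476332 to 56626481), which includes ZNF444 and ZNF524, had 3.21, 2.65 and 3.55. Of these 10, 2 were lower and 1 higher, not above the shares of all genes. These clusters lie on the same chromosome and differ in median GC content, 46.6% in the first and 58.4% in the second.

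On chromosome 7, ZNF777, ZNF212 and ZNF282 belong to a cluster of 10 (149069643 to 149867479) with a median of 3.11, 3.04 and 3.20. Its members ran from 1.83 to 4.03 in mean MRL, so the cluster was not uniform. Of the 10, 3 were lower, near the 24.7% of all genes, and 1 was higher, where 22% of all genes were. The 6 members at 9140380 to 9793180 on chromosome 19 had 2.23, 2.55 and 2.22, and 5 of them were lower.

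**Figure D5:**
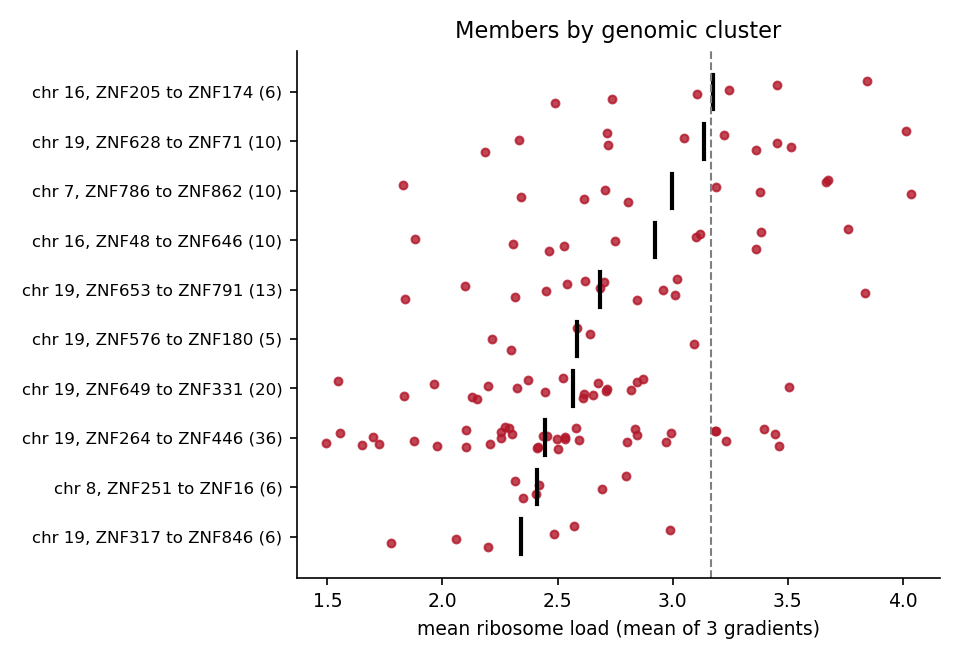
Mean ribosome load (horizontal axis, mean of 3 gradients, no unit) of members in 10 genomic clusters, each named by its chromosome and first and last member with the number of members in brackets. Points are genes, bars the cluster medians and the dashed line the median gene; medians run from 2.34 to 3.18.

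Some members varied widely between gradients. ZNF629 had an MRL of 2.80, 4.24 and 3.12, ZNF217 of 2.49, 3.54 and 2.13 and ZNF316 of 3.39, 3.85 and 2.51, each highest in gradient 2. ZNF524 had 2.59, 2.03 and 3.52, lowest in gradient 2. None of these was called in MRL, with adjusted p-values of 0.645, 0.165, 0.927 and 0.175 by limma. Across members, MRL correlated between gradients at a Pearson r of 0.688 for 1 and 2, 0.725 for 1 and 3 and 0.594 for 2 and 3.

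At the GC threshold itself, ZNF19 (43.01%) and ZNF318 (43.02%) were the members just inside. ZNF19 had an MRL of 2.21, 2.92 and 2.35, and ZNF318, a nuclear protein that in mice controls IgD splicing, had 3.798, 3.84 and 3.18. ZNF146 (42.84%) and ZNF367 (42.89%) were just outside, with 2.65, 2.84 and 2.35 and with 2.46, 2.45 and 2.87. The MRL values of these 4 genes overlap across the threshold.

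KRAB zinc finger proteins act through corepressors and heterochromatin proteins. Of 20 corepressor and heterochromatin genes listed, 19 were kept, with a median MRL of 3.74, 4.05 and 3.49 in gradients 1, 2 and 3. In MRL 7 were higher (36.8%, against 22% of all genes) and 0 lower (against 24.7%) by limma. In heavy against monosome 10 were higher (52.6%, against 24.7%) and 0 lower (against 24.4%). The other 12 were not called in MRL. At an unadjusted p under 0.05 there were likewise 0 lower in both tests, and edgeR and DESeq2 called 0 lower in heavy against monosome. Without replicate 1 the higher calls numbered 2 in MRL and 5 in heavy against monosome, where 9.89% and 9.99% of all genes were higher. Without replicate 2 there were 2 lower in heavy against monosome, where 30% of all genes were. The list had a median coding length of 2583 bases, against 1407 for all genes. Over all genes the Spearman rho between coding length and mean MRL was 0.25. The part of coding length in the level of the list was not tested. TRIM28, the corepressor that KRAB domains bind, had 3.78, 3.56 and 3.17 and was not called in MRL, and SETDB1 had 3.16, 3.30 and 2.87. HDAC2, a histone deacetylase, had 4.37, 4.66 and 4.86 (adjusted p = 0.000976), and TASOR, of the HUSH silencing complex, had 3.82, 4.397 and 3.92 (adjusted p = 0.00925). The MRL calls of HDAC2 and TASOR held without any of the replicates. Those of CBX1, CHD3, CHD4, HDAC1 and PPHLN1 were lost without replicate 1 (adjusted p = 0.259, 0.0546, 0.0645, 0.144 and 0.0945), and CBX1 also without replicate 3 (0.0882).

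Reads of closely related genes bear on these values. At least 10% of the 75-base windows of 32 members occur in other genes, and these 32 had a median MRL of 2.501, 2.71 and 2.33 in gradients 1, 2 and 3. The 194 others had 2.60, 2.76 and 2.55. For ZNF223, ZNF320, ZNF490, ZNF564, ZNF709 and ZNF747 the shared part was 61.5% to 99.5%, and their counts are uncertain. Exons of 128 members overlap another annotated gene, in 7 of them over at least 50% of the exonic length. Whether the counting used strand is not given in the sources used here, so reads of overlapping genes on opposite strands may not have been told apart.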

How the data were processed

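Vehicle-treated HEK293 cells gave 3 heavy polysome, 3 light polysome and 3 monosome libraries of 75 nt reads. Reads were assigned with featureCounts on GRCh38, per the submitters' processing notes; the sources used here do not give the aligner, options or strand setting. The deposited signal holds each library's read counts scaled by a single factor, and whole reads were recovered for 100% of values at a tolerance of 0.01 reads. The percent values deposited divide a gene over the fractions of 1 gradient, and were recomputed within 5.5e-08. MRL, a score in the deposited table, was recomputed for the genes kept within 4.61e-09, and its weights were solved from the values. Fold changes and p-values in the authors' deposited table were not used.

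Of 13661 genes, 12720 had a mean of at least 10 reads and reads in each gradient. The design allowed for counts or normalized counts. Because the values are normalized counts, limma 3.58.1 (trend, two-sided) was fitted to log2(normalized count + 1) of the 9 libraries with fraction as the only term, a scale that understates the change of low genes. For MRL it tested log2 MRL minus the median gene of each gradient against 0. Benjamini-Hochberg adjustment ran over all genes at 0.05, and the fits were checked on simulated data. edgeR 4.0.16 and DESeq2 1.42.0 on the recovered reads, other pseudocounts, filters and centring, a replicate block and left-out replicates served as alternatives. The labels give 1 batch to each replicate number, so numbers were taken to pair the fractions of a gradient. Deviations from the fraction mean correlated between same-numbered libraries at -0.54 to 0.391. Between differently numbered libraries they correlated at -0.447 to 0.394, so these correlations do not show the pairing.

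Gene models, coding sequences and coordinates came from GENCODE release 29, where 13658 identifiers matched. KRAB-like and SCAN-like stretches were at least 11 of 15 and 14 of 19 conserved positions. Shared sequence was counted in windows of 75 bases. The members and lists were chosen with earlier results of these data known. Genes with a mean normalized count of at least 100 were named for the 6 highest and 6 lowest MRL, and the 4 highest light polysome percentages, abundances and SDs of MRL. The genes next to the GC threshold and those of the lists were added. Others, such as ZNF114, ZNF436, ZNF579, ZNF649, ZNF653 and ZNF775, were chosen after their values were seen. Depth limits precision most for members with few reads in a library.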

Additional observations from a re-analysis of the deposited data

How the results depend on the processing

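Counts of members called moved by more than 1.5 times mainly when a gradient was left out; the cause was not tested. Leaving out 1 replicate gave 65 to 130 members lower and 0 to 10 higher in MRL, 64 to 136 lower and 1 to 11 higher in heavy against monosome, 20 to 78 lower and 1 to 15 higher in light against monosome, and 0 to 96 lower and 0 to 16 higher in heavy against light. Without light polysome library 2 there were 70 lower and 14 higher in heavy against light and 8 higher in light against monosome. The shares of all genes for these leave-outs stand beside the counts above. Centring on the mean gene gave 8 members higher in MRL, where 27.8% of all genes were higher. Replacing MRL by the log2 share in light plus heavy polysomes gave 58 lower, and 3 ZNF genes changed sign: ZNF146 was then at 0.018 (adjusted p = 0.905), ZNF445 at 0.22 (adjusted p = 0.0176) and ZNF700 at 0.34 (adjusted p = 9.59e-05, limma). With the replicate block, 113, 55 and 44 members were lower in heavy against monosome, light against monosome and heavy against light. In the same order, 6, 3 and 7 were higher. Of all genes, 24.5%, 10.7% and 18.3% were lower and 24.8%, 8.4% and 15.5% higher with the block. Of the named genes, the block ended 3 calls: ZNF174 in heavy against light, ZNF202 in light against monosome (adjusted p = 0.0519) and MORC2 in heavy against monosome (0.0539). edgeR, DESeq2, a pseudocount of 5, no filter and a minimum of 50 reads kept every count of members within 1.5 times. The median MRL of the members lay between 2.56 and 2.67 over leave-outs, GC thresholds of 42% and 45% and a minimum of 50 reads. Each gradient gives 1 value per gene, so leaving 1 out leaves 2 values for the MRL test. Members with few reads, such as ZNF331 in heavy polysomes, are the least precise.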

Other observations

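Members were also grouped by features of their GENCODE transcripts, with no test. The 16 members with a coding sequence over 3000 bases had a median MRL of 2.88, 3.77 and 2.84 in gradients 1, 2 and 3. The 15 members with at most 900 bases had 2.53, 2.43 and 2.29. Gradient 2 thus separated long from short coding sequences the most. Across the 226 members, the Spearman rho between coding length and MRL was 0.06, 0.26 and 0.01 in gradients 1, 2 and 3, and over all genes with a coding model it was 0.16, 0.48 and 0.09. The 53 members with at least 3 ATG triplets upstream of the start codon had a median MRL of 2.36, 2.68 and 2.44. The 80 members with 1 to 2 had 2.65, 2.79 and 2.65, and the 91 members with none had 2.65, 2.77 and 2.52. Across 224 members, the Spearman rho between the number of upstream ATG triplets and mean MRL was -0.06. By gradient it was -0.11, 0.009 and -0.06.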
